A study of Mus musculus with 8 samples.

Results

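Transcripts of 10 genes of the NRF2 pathway were followed in livers of mice that make the misfolding Z form of human alpha-1 antitrypsin, with and without CHOP. The 10 are Nfe2l2, which encodes NRF2, Keap1, and the target genes Cbr1, Cbr3, Nqo1, Txnrd1, Srxn1, Hmox1, G6pdx and Pgd, of 52551 rows in each count table. They were taken by symbol as NRF2, its inhibitor and targets outside glutathione metabolism. The set was proposed with fold changes of the same comparison known, and Cbr3 in particular was selected on its low counts without CHOP. Their values are therefore a description, and nothing is supported with them. Of the 10, 9 had enough counts to be fitted and G6pdx did not.

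The PiZ/Chop-/- group and the PiZ group each had 4 liver libraries from male C57BL/6 mice 6 weeks old. Both groups carried PiZ, the transgene for the human Z variant, and the first also lacked Chop, the gene Ddit3, whose product is a transcription factor of endoplasmic reticulum (ER) stress. The labels give neither the promoter of the transgene nor the part of Ddit3 that was removed, and do not tie libraries to single mice, so errors measure the spread between libraries. The wild-type group of the design text was not analysed here, so no level below can be set against a liver without the transgene.

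NRF2 is a bZIP transcription factor that KEAP1 holds in the cytosol and passes to a CUL3 ubiquitin ligase. Electrophiles and oxidants modify cysteines of KEAP1, and NRF2 then accumulates, pairs with small MAF proteins and binds antioxidant response elements in its target genes. NRF2 is controlled largely through protein stability. In liver the pathway is known for enzymes that reduce quinones and carbonyls, restore thioredoxin, break down haem and supply NADPH.

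Promoter windows of the members are shown first, since they are where response elements can be looked for. RefSeq windows of the build GRCm38.p6, 250 bases before to 50 after a start site, were at hand for 9 of the 10 genes, 12 windows in all. The core of the antioxidant response element was searched as TGACNNNGC on both strands, the AP-1 element as TGACTCA and the C/EBP-ATF composite element, bound by ATF4 with C/EBP partners, as TGATGCAAT. Printed are the windows of Cbr3 and Cbr1, because these neighbours differ in their values, and those of Srxn1 and Nfe2l2, because they hold a core. Capitals mark matches of any of the 3 motifs.
Cbr3 (chr16:93682969-93683268, plus strand): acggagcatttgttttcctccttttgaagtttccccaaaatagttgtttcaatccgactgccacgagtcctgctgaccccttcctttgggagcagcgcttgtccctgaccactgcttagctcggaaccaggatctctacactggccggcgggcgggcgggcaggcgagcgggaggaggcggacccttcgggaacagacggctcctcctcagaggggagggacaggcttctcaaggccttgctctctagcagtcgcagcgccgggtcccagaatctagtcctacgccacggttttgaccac
Cbr1 (chr16:93607587-93607886, plus strand): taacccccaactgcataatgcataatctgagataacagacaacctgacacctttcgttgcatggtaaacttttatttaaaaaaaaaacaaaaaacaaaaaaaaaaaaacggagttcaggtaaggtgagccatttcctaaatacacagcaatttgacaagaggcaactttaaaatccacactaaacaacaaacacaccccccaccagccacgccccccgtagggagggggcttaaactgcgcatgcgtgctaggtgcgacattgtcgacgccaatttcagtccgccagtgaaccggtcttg
Srxn1 (chr2:152105274-152105573, plus strand): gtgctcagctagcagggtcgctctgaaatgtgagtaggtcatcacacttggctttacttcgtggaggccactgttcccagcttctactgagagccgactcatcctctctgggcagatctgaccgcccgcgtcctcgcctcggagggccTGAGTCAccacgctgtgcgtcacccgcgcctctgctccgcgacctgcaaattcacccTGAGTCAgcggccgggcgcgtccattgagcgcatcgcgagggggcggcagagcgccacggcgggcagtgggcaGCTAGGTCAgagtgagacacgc
Nfe2l2 (chr2:75704614-75704913, minus strand): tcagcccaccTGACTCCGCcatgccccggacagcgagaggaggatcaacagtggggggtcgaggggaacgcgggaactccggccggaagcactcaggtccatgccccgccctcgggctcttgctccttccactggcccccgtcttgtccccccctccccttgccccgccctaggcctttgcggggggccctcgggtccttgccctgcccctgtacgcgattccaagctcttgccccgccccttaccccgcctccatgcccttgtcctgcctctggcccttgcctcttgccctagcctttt

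A core was present in 5 of the 12 member windows (41.7%), and in 12.4% of all 32851 windows in the table. The 5 genes were Nfe2l2, Srxn1, Pgd, Txnrd1 and G6pdx. In Pgd the core was in a window whose start site lay 625 bases downstream of the nearest coding transcript start in GENCODE M21. The other Pgd window, 2 bases from such a start, held none. Of the Txnrd1 windows only that at chr10:82858956-82859255 held a core. The 12 member windows ran from 44.0% to 68.7% G and C, with middle values of 53.7% and 60.0%, against a median of 52.7% over all windows. In Srxn1 the core lay on the minus strand, 28 bases after the start site, and a pair of AP-1 matches stood 102 and 45 bases before that site; 5.20% of all windows hold an AP-1 match. In Nfe2l2 the core TGACTCCGC began 240 bases before the start. The windows of Cbr3, Cbr1, Nqo1 and Keap1 held no core, and the composite element was in no member window and in 0.192% of all windows. These are matches of letters in short windows and say nothing of binding in these livers.

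Total counts were 1850275 to 2375907 in PiZ/Chop-/- libraries and 1650260 to 3064385 in PiZ libraries. Levels are CPM, counts scaled to a common library size with TMM factors. Because reads of this kit start near the 3' end of transcripts, levels of different genes were compared without division by length. Ddit3 followed its label, with 1.72 to 4.19 CPM in PiZ/Chop-/- and 85.4 to 191 CPM in PiZ livers. The transgene transcript SERPINA1 was lower as well, at 620 ± 70.9 CPM in PiZ/Chop-/- and 1451 ± 374 CPM in PiZ livers (SD, n = 4 each), and its part in the values below was not tested. Hepatocyte markers summed to 25630 to 33980 CPM in PiZ/Chop-/- and 25740 to 35440 CPM in PiZ livers. PiZ library 4 correlated least with its own group (mean r = 0.914, against 0.931 to 0.951 for the other 7 libraries), so values without it are given for several genes below.

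The other members lie on several chromosomes of mm10. Nfe2l2 is at chr2:75675513-75704641 and Keap1 at chr9:21229730-21239361, both on the minus strand. Srxn1 (chr2:152105516-152111376), Txnrd1 (chr10:82833951-82897712) and Hmox1 (chr8:75093621-75100589) are on the plus strand. Nqo1 (chr8:107388225-107403206), Pgd (chr4:149149991-149166771) and G6pdx (chrX:74409483-74429194) are on the minus strand.

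Cbr3 was the member with the greatest difference. It encodes a carbonyl reductase, an NADPH-dependent enzyme of the short-chain dehydrogenase family that reduces ketones and quinones. Cbr3 stood at 2.79, 2.30, 5.96 and 2.33 CPM in PiZ/Chop-/- libraries 1 to 4, and at 31.4, 56.8, 46.3 and 75.0 CPM in PiZ libraries 1 to 4. All 4 PiZ/Chop-/- libraries lay far below all 4 PiZ libraries. The counts behind the low levels were 6, 4, 12 and 5 in PiZ/Chop-/- libraries 1 to 4, against 51, 117, 144 and 158 in PiZ libraries 1 to 4. Means were 3.34 ± 1.76 CPM in PiZ/Chop-/- and 52.4 ± 18.3 CPM in PiZ livers (SD, n = 4 each), a 15.4-fold lower level without CHOP (log2 fold change -3.95, SE 0.36, edgeR). Left-out libraries moved the log2 value between -4.37 and -3.71. The gene (ENSMUSG00000022947) occupies chromosome 16 from 93683215 to 93690990, plus strand, in mm10.

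**Figure D1:**
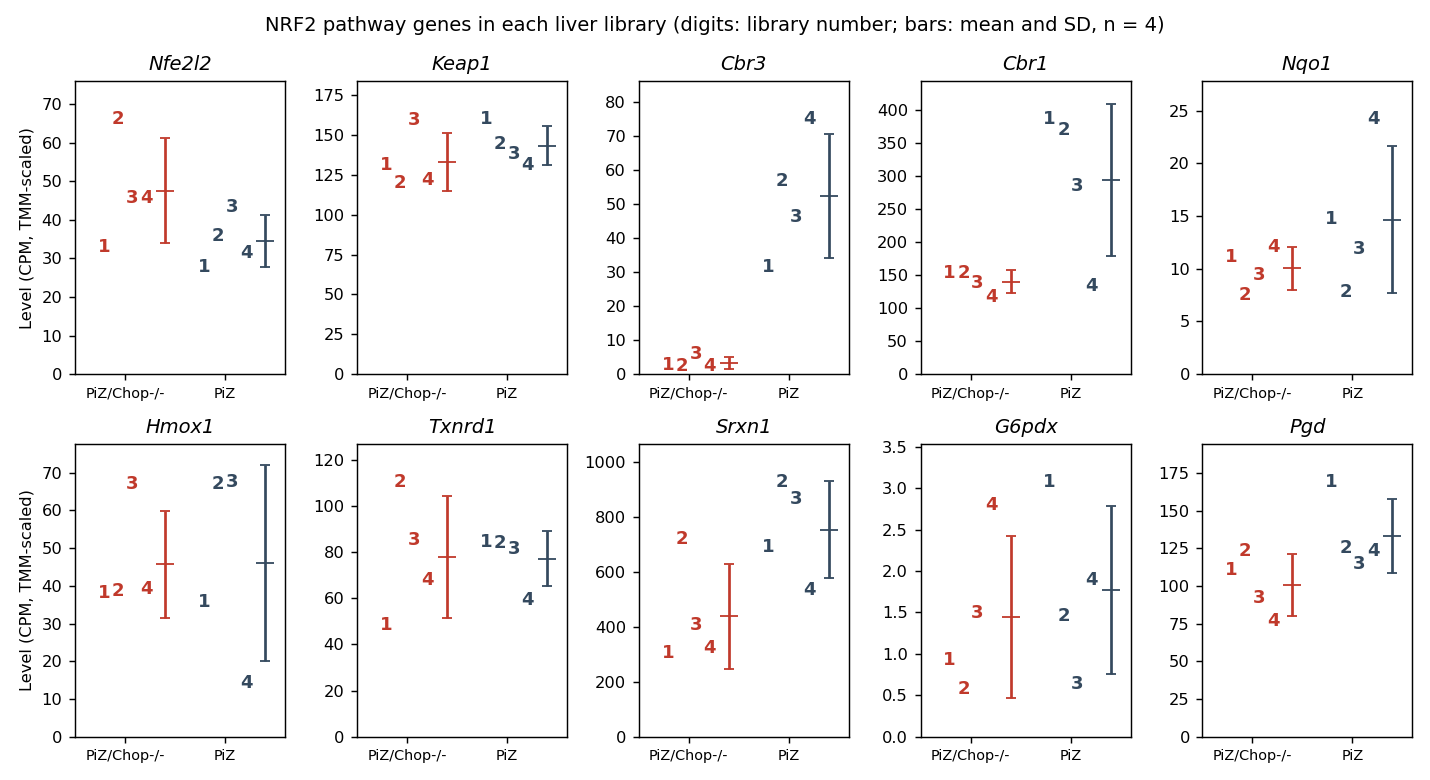
Level of each of the 10 NRF2 pathway genes in CPM (vertical axes, each starting at 0), with PiZ/Chop-/- libraries left and PiZ libraries right. Digits are library numbers and bars the mean and SD (n = 4). For Cbr3 alone the groups do not overlap, with all PiZ/Chop-/- libraries under 6 CPM and all PiZ libraries above 31 CPM.

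Cbr1, the neighbouring and more abundant carbonyl reductase, differed far less. It lies on chromosome 16 at 93605853 to 93610505, 72.7 kb before Cbr3 on the same strand. Cbr1 stood at 153, 153, 138 and 116 CPM in PiZ/Chop-/- libraries 1 to 4, and at 386, 370, 285 and 134 CPM in PiZ libraries 1 to 4. PiZ libraries 1, 2 and 3 lay above every PiZ/Chop-/- library, and PiZ library 4 lay among those. The log2 fold change was -1.07 (SE 0.27), and -1.29 without PiZ library 4. Cbr1 averaged 140 ± 17.4 CPM in PiZ/Chop-/- and 293 ± 115 CPM in PiZ livers (SD, n = 4 each).

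Within the pair, Cbr3 made up 1.48% to 4.12% of the summed Cbr1 and Cbr3 counts in PiZ/Chop-/- libraries and 7.52% to 35.9% in PiZ libraries. The 35.9% was in PiZ library 4, which had both the highest Cbr3 and the lowest Cbr1 level of its group. The next share in PiZ was 14.0%. The coding sequences of the pair, 831 bases each, were 77.1% identical, with a longest identical run of 50 bases, shorter than a read of 75 bases. No stretch of 75 bases from the last 500 bases of either gene's transcripts was found in transcripts of another gene, so reads that match exactly can be assigned.

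**Figure D2:**
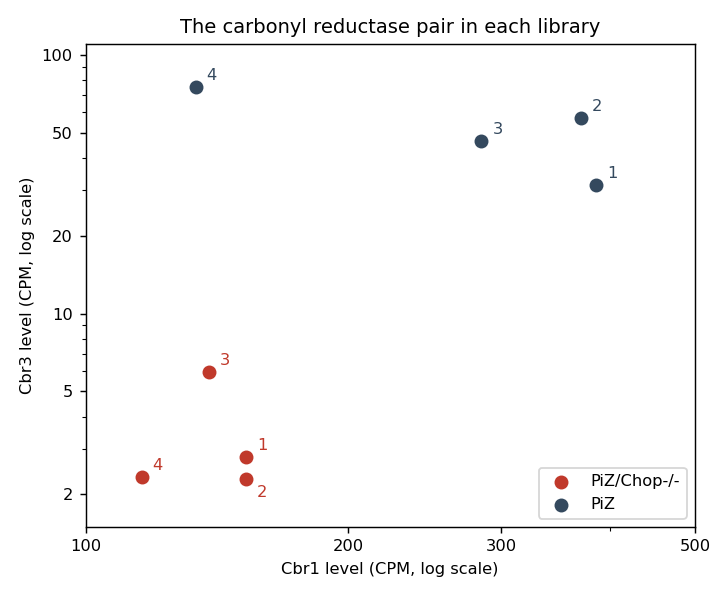
Cbr1 level (horizontal, CPM, log scale) against Cbr3 level (vertical, CPM, log scale), 1 point per library, numbered within its group. PiZ/Chop-/- libraries sit together between 2.30 and 5.96 CPM of Cbr3, while PiZ libraries 1 to 3 are to the upper right and library 4 is at the top left with 134 CPM of Cbr1.

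The regulators themselves overlapped between the groups. Nfe2l2 stood at 33.0, 66.1, 45.7 and 45.6 CPM in PiZ/Chop-/- libraries 1 to 4, and at 27.7, 36.0, 43.4 and 31.3 CPM in PiZ libraries 1 to 4. The groups overlapped, with the highest value in PiZ/Chop-/- library 2. Its log2 fold change was 0.45 (SE 0.24), and 0.25 without that library. Keap1 encodes the inhibitor, and varied little. It stood at 132, 120, 159 and 122 CPM in PiZ/Chop-/- libraries 1 to 4, and at 160, 144, 138 and 131 CPM in PiZ libraries 1 to 4. The groups overlapped over most of their range (log2 fold change -0.10, SE 0.17). An antisense gene, Gm16754, overlaps the 3' end of Keap1 and shares 13.1% of its end sequences of 75 bases, but was credited with 2 counts in all libraries, against 2337 for Keap1.

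Of Nqo1 and Hmox1, genes often used as readouts of NRF2, Nqo1 was low and Hmox1 varied widely in PiZ livers. Nqo1 encodes the quinone reductase of the cytosol. It stood at 11.1, 7.47, 9.43 and 12.1 CPM in PiZ/Chop-/- libraries 1 to 4, and at 14.8, 7.77, 11.9 and 24.2 CPM in PiZ libraries 1 to 4. The groups overlapped and PiZ library 4 alone lay well above the rest. The log2 fold change was -0.53 (SE 0.35), -0.16 without PiZ library 4, and 0.02 without PiZ libraries 1 and 4.

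Hmox1 encodes haem oxygenase, which opens the haem ring and releases iron. It stood at 38.1, 38.5, 67.0 and 39.1 CPM in PiZ/Chop-/- libraries 1 to 4, and at 35.7, 67.0, 67.5 and 14.2 CPM in PiZ libraries 1 to 4. Means were nearly equal, at 45.7 ± 14.2 CPM in PiZ/Chop-/- and 46.1 ± 26.0 CPM in PiZ livers (SD, n = 4 each), while PiZ library 4 held the lowest value of all 8. The log2 fold change of -0.02 (SE 0.42) turned sign in 7 of 18 alternatives and ran from -0.56 to 0.23, with -0.31 without PiZ library 4. Macrophages that take up red cells also express Hmox1 in liver. The 12 Kupffer cell and macrophage markers summed to 821 to 977 CPM in PiZ/Chop-/- and 1048 to 1511 CPM in PiZ livers. Of the 12, 11 had a fold change below 0, as did 50.2% of all tested genes, and none was called in either direction. The largest part of the sums was Cd5l, with means of 317 CPM in PiZ/Chop-/- and 520 CPM in PiZ livers (edgeR adjusted p = 0.179). None of the 12 was at 0 in all libraries. PiZ library 4 was at 1472 CPM for these markers. The 6 red cell markers summed to 341 to 1455 CPM in PiZ/Chop-/- and 351 to 832 CPM in PiZ livers. PiZ/Chop-/- library 3, the highest in its group for Hmox1, was at 1455 CPM. In PiZ livers the order was different. Library 4, the lowest for Hmox1, had the highest red cell sum at 832 CPM. PiZ libraries 2 and 3, the highest for Hmox1, were at 351 and 458 CPM. In bulk liver fewer cells of a type and less RNA per cell cannot be told apart, and the part of these cells in the Hmox1 values was not tested.

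Of the thioredoxin branch, Srxn1 was the most abundant of the 10 genes and lower on average, and Txnrd1 had nearly equal means. Srxn1 encodes sulfiredoxin, which restores over-oxidised peroxiredoxins. It stood at 303, 717, 406 and 322 CPM in PiZ/Chop-/- libraries 1 to 4, and at 688, 926, 862 and 535 CPM in PiZ libraries 1 to 4. PiZ/Chop-/- library 2 lay within the PiZ range and the other 3 below all PiZ libraries. The log2 fold change was -0.78 (SE 0.27), and -1.13 without PiZ/Chop-/- library 2. Txnrd1 encodes the cytosolic thioredoxin reductase, a selenoprotein. It stood at 48.3, 110, 85.4 and 68.0 CPM in PiZ/Chop-/- libraries 1 to 4, and at 84.3, 84.0, 81.3 and 59.3 CPM in PiZ libraries 1 to 4. The groups overlapped, with the highest and lowest values both in PiZ/Chop-/- livers (log2 fold change 0.01, SE 0.24), and the sign turned in 7 of 18 alternatives.

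The oxidative pentose phosphate pair supplies NADPH to all these reductases. Pgd encodes 6-phosphogluconate dehydrogenase. It stood at 111, 124, 91.8 and 76.9 CPM in PiZ/Chop-/- libraries 1 to 4, and at 169, 125, 115 and 123 CPM in PiZ libraries 1 to 4. Every PiZ/Chop-/- library lay below PiZ libraries 1 and 2, but the groups overlapped (log2 fold change -0.40, SE 0.20). G6pdx encodes glucose-6-phosphate dehydrogenase, the first step of that route, and was barely counted. It had 2, 1, 3 and 6 counts in PiZ/Chop-/- libraries 1 to 4, and 5, 3, 2 and 4 counts in PiZ libraries 1 to 4. No fold change is given, since most values are at or near 3 counts. G6pdx lies within Ikbkg on the opposite strand, which had 743 counts over the 8 libraries against 26 for G6pdx. It also shares 2.93% of its end sequences with G6pd2. No source used here gives the strand setting of the counting, and overlap of their exons was not checked. Whether reads of G6pdx were lost or credited to Ikbkg is therefore not known.

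**Figure D3:**
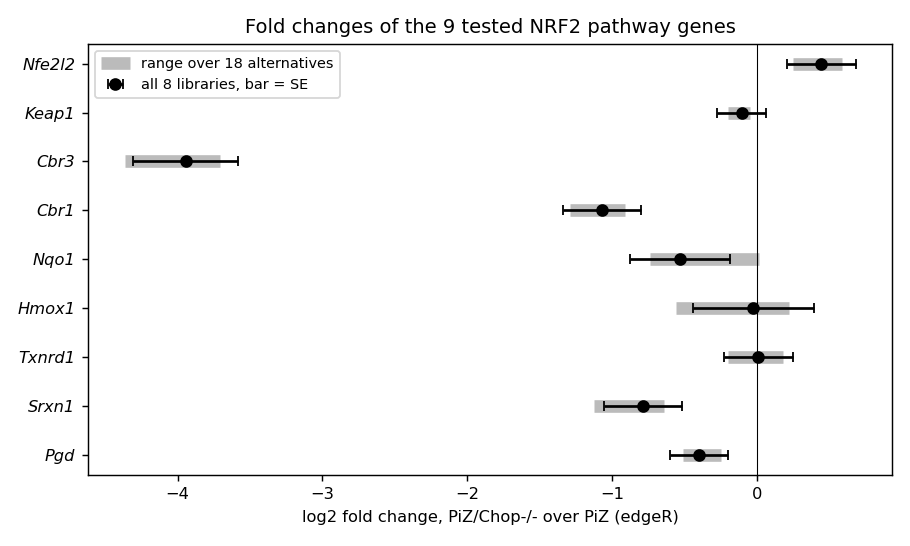
Log2 fold change of PiZ/Chop-/- over PiZ (horizontal) for the 9 tested members. Points and bars are the edgeR value and its SE with all 8 libraries, and grey bars the range over 18 alternative fits. Cbr3 stands apart at -3.95, Cbr1 and Srxn1 stay below 0 over the whole range, and Hmox1, Txnrd1 and Nqo1 have ranges that cross 0.

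Across the 9 tested members, 7 fold changes were below 0 and the median was -0.40, against a median of -0.0020 and 50.2% below 0 over all 8669 genes tested. One of the 9, Cbr3, passed the genome-wide threshold (edgeR, Benjamini-Hochberg adjusted p below 0.05), as did 1.03% of all tested genes. The groups did not overlap for that gene alone, as for 7.88% of all tested genes (4.22% with PiZ/Chop-/- below and 3.66% above). As the members were proposed with this comparison known, nothing is read from these counts. Cbr3 reached the level of the count filter in 4 PiZ libraries and 1 PiZ/Chop-/- library, and the 8 other tested members in all libraries. A second member was called under some alternatives: Cbr1 without PiZ library 4, without PiZ libraries 1 and 4, under scaling by library size alone and under DESeq2, and Srxn1 without PiZ/Chop-/- library 2. With no filter on low counts 3 were called, Cbr3, Cbr1 and Srxn1.

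The order of levels was the same at the top in both genotypes. Srxn1 came first, followed by Cbr1, Keap1, Pgd and Txnrd1 in PiZ/Chop-/- and in PiZ livers alike. Cbr3 was 9th of 10 in PiZ/Chop-/- livers and 6th in PiZ livers. In PiZ/Chop-/- livers Cbr3 overlapped G6pdx below it, and was separate from Nqo1 above it. In PiZ livers it overlapped both Txnrd1 above it and Hmox1 below it. Neighbours from Cbr1 down to Hmox1 overlapped in PiZ/Chop-/- livers, and in PiZ livers the gaps without overlap were those after Srxn1, Pgd, Nfe2l2 and Nqo1.

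The members differed in which libraries were high or low. PiZ library 4 had the lowest level of its group for 5 of the 9 tested members, Keap1, Cbr1, Txnrd1, Srxn1 and Hmox1, and the highest for Cbr3 and Nqo1. PiZ/Chop-/- library 2 had the highest level of its group for Nfe2l2, Txnrd1, Srxn1 and Pgd, and the lowest for Keap1, Cbr3 and Nqo1. Of the tested members Hmox1 spread most in PiZ livers, 4.74-fold between the highest and lowest library, while Keap1 spread 1.33-fold in PiZ/Chop-/- and 1.22-fold in PiZ livers.

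No other member was among the genes with profiles nearest to that of Cbr3. Likeness was measured as the root mean square difference of centred log2 CPM over the 8 libraries, among 7038 protein-coding genes whose mean log2 CPM was 3 or more. The nearest were Abcc4 (0.41), an organic anion pump; Mars (0.51), the methionine tRNA synthetase; Gpx2 (0.64), a glutathione peroxidase; Trib3 (0.69), a pseudokinase that CHOP induces; and Ly6d (0.69), a surface protein. All 5 were lower in PiZ/Chop-/- livers without overlap, which is what the measure selects. Among the members the nearest were Srxn1 and Cbr1, both at 1.55 and 197th and 205th in rank, and the farthest was Nfe2l2 at 2.11. The measure depends largely on the size of the step between the groups. The distances of the members therefore follow for the most part from the fold changes given above. Mars had 4.67 ± 1.14 CPM in PiZ/Chop-/- and 57.4 ± 8.53 CPM in PiZ livers (SD, n = 4 each), levels close to those of Cbr3 in both groups. Genes that overlap in position were looked up for the members only, and not for these 5 nearest genes. Whether the removal of Ddit3, or any gene that overlaps Mars, has a direct part in the Mars values was not tested.

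**Figure D4:**
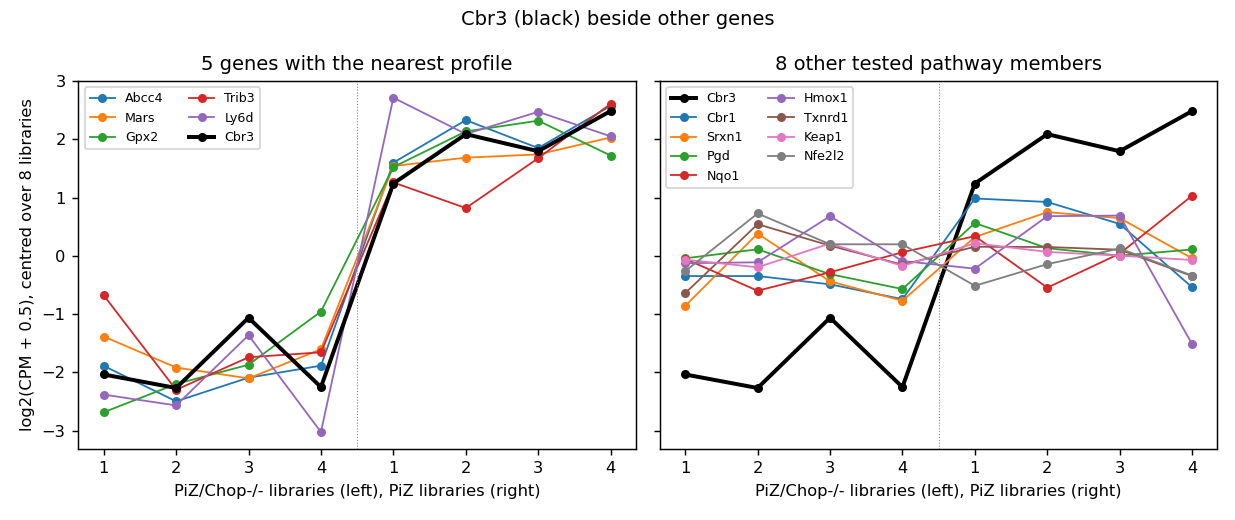
Centred log2 CPM of each gene (vertical, with a small constant added to the CPM before the log), with 8 libraries along the horizontal axis, PiZ/Chop-/- libraries left and PiZ libraries right of the dotted line. Lines only join the points of 1 gene. The left panel shows Cbr3 with its 5 nearest genes, which share a step between the groups, and the right panel Cbr3 with the 8 other tested members, of which Cbr1 (log2 fold change -1.07) and Srxn1 (-0.78) are lower in PiZ/Chop-/- livers with overlap.

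The rest of the pathway was taken from 8 lists by role, 104 genes of which 84 had enough counts to be tested. Of the 84, 6 fell in PiZ/Chop-/- livers and none rose (edgeR, adjusted p below 0.05), where 0.692% of all tested genes fell and 0.335% rose. The falls of 3 of the 6, Ggt1, Gpx2 and Abcc4, were known when the lists were drawn up; without them 3 of 81 fell. The unadjusted p was under 0.05 for 22 of the 84 (26.2%), and for 13.1% of all tested genes. Of the 6 called genes, 4 (Ggt1, Gpx2, Abcc4 and Akr1b7) reached the level of the count filter in all PiZ libraries but in at most 1 PiZ/Chop-/- library. They were thus tested through the group where they are high, and so had to differ to be tested; the count of 6 is a description. Gstm2 and Gstm3 reached it in all 8 libraries. The median fold change was -0.11, against -0.0020 over all tested genes.

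Of the 6 called genes, 4 are on the glutathione list. In that list 4 of 15 tested genes fell and none rose, where 0.692% of all tested genes fell and 0.335% rose. The median was -0.46, against -0.002 over all tested genes. The falls of Ggt1 and Gpx2 were known when the list was drawn up. Both were also tested through the group where they are high, so the count of 4 is a description. Ggt1, which cleaves extracellular glutathione, stood at 2.98 ± 2.32 CPM in PiZ/Chop-/- and 101 ± 19.5 CPM in PiZ livers (SD, n = 4 each), and Gpx2 at 4.77 ± 2.86 CPM in PiZ/Chop-/- and 70.0 ± 17.7 CPM in PiZ livers. The glutathione transferase Gstm3 fell by 2.00 on the log2 scale (SE 0.35, adjusted p = 0.0173, edgeR), and Gstm2 fell by 0.94 (SE 0.18, adjusted p = 0.0155, edgeR). The Gstm3 call was lost without PiZ/Chop-/- library 3 or PiZ library 2 or 4. The Gstm2 call was lost without PiZ/Chop-/- library 1, 3 or 4 or PiZ library 2 or 3. Of the sequences of 75 bases from the last 500 bases of their transcripts, Gstm3 shared none with another gene, and Gstm2 shared 4.62%, with Gm12499. The subunits of glutamate-cysteine ligase, which makes the precursor of glutathione and is a standard NRF2 target, did not pass: Gclc had 0.22 (SE 0.22, adjusted p = 0.719) and Gclm -0.14 (SE 0.20, adjusted p = 0.816, edgeR).

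Outside glutathione metabolism, 1 further carbonyl-reducing enzyme and 1 pump fell. Akr1b7, an aldo-keto reductase, had 4.18, 2.87, 2.48 and 1.40 CPM in PiZ/Chop-/- libraries 1 to 4, and 17.8, 18.5, 14.1 and 9.02 CPM in PiZ libraries 1 to 4. All PiZ/Chop-/- libraries lay below all PiZ libraries (log2 fold change -2.41, SE 0.40, adjusted p = 0.00529, edgeR), on 3 to 9 counts each in PiZ/Chop-/- libraries, none of which reached the level of the count filter. The same holds for Abcc4, with 5 to 10 counts each in PiZ/Chop-/- libraries. Akr1b7 was the only 1 of 17 tested genes of carbonyl and quinone reduction to pass, and the median of that list was 0.0010. Of 4 tested export pumps, Abcc4 fell (log2 fold change -4.33, SE 0.30, adjusted p = 5.03e-07, edgeR), while Abcc2 had 0.13 (adjusted p = 0.835) and Abcc3 had 0.41 (adjusted p = 0.543). 

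**Figure D5:**
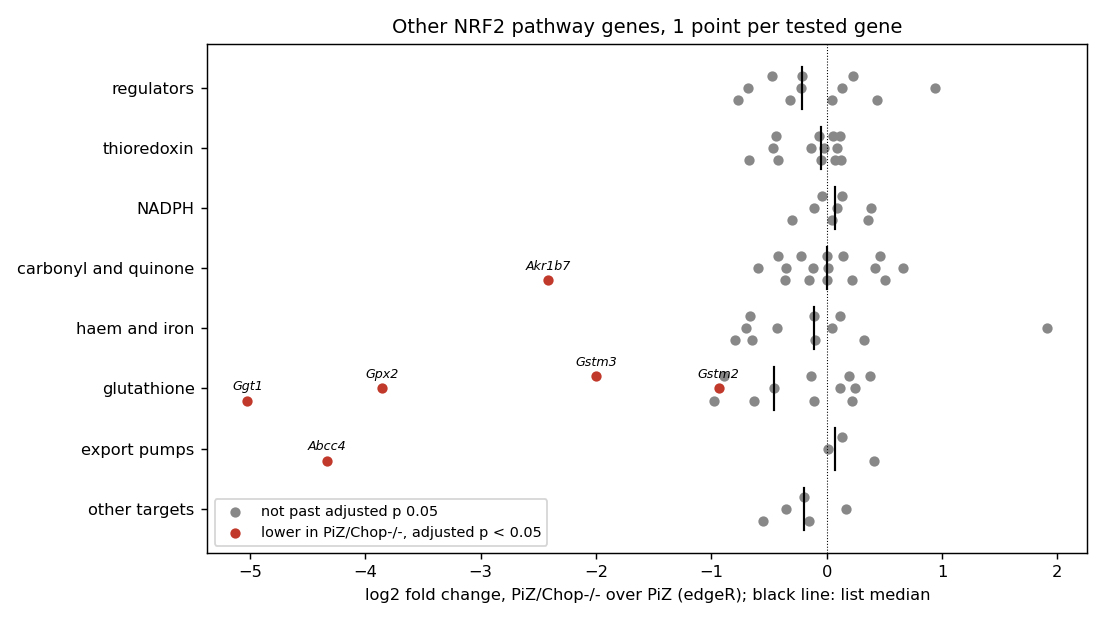
Log2 fold change of PiZ/Chop-/- over PiZ (horizontal) for the 84 tested genes of the 8 lists (rows), 1 point per gene, with the list median as a black line. The 6 red points are genes past an adjusted p of 0.05, 4 of them in the glutathione list, and all other points but that of Alas1 (1.91) lie within 1 log2 unit of 0.

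No tested gene of the regulator list (11), the thioredoxin list (13), the NADPH list (8), the haem and iron list (11) or the other targets (5) passed edgeR's test. Among regulators, Sqstm1, the autophagy receptor p62 that binds KEAP1, had 378 ± 82.4 CPM in PiZ/Chop-/- and 644 ± 74.8 CPM in PiZ livers (SD, n = 4 each). The fold change was -0.77 on the log2 scale (SE 0.20, edgeR adjusted p = 0.0831). Its groups did not overlap, and it passed in 5 of 18 alternatives: with DESeq2 (adjusted p = 0.0117), and with edgeR under no filter (adjusted p = 0.0218), without PiZ/Chop-/- library 2 (0.0319), with library size only (0.0469) and without PiZ libraries 1 and 4 (0.0479). Its adjusted p ranged up to 0.261 over the alternatives. Bach1, a repressor that competes with NRF2 at Hmox1, had 0.94 (SE 0.30, adjusted p = 0.184, edgeR; 0.00594 with no filter and up to 0.478 over its alternatives), and Mafg, a small MAF partner, 0.04 (SE 0.18, adjusted p = 0.946). Of these lists, the unadjusted p was under 0.05 for 2 regulators, 1 thioredoxin gene, 1 NADPH gene, 5 haem and iron genes and none of the other targets, against 13.1% of all tested genes.

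Haem and iron genes beside Hmox1 were mixed. Slc48a1, a haem transporter, had 283 ± 28.4 CPM in PiZ/Chop-/- and 459 ± 53.5 CPM in PiZ livers (SD, n = 4 each), a difference of -0.70 on the log2 scale (adjusted p = 0.0788, edgeR), and Blvrb, a biliverdin reductase, had -0.66 (adjusted p = 0.0906). Neither overlapped between groups, and both passed with DESeq2 (Slc48a1 adjusted p = 0.00346, Blvrb adjusted p = 0.0121). Over the alternatives the adjusted p reached 0.190 for Slc48a1, which also passed without PiZ library 4 (0.0316) and without PiZ libraries 1 and 4 (0.0484), and 0.268 for Blvrb. Alas1, the first enzyme of haem synthesis and a gene chosen after its values were seen, stood at 153, 129, 591 and 631 CPM in PiZ/Chop-/- libraries 1 to 4 and at 80.0 to 116 CPM in PiZ livers (log2 fold change 1.91, SE 0.56, adjusted p = 0.214, edgeR). It passed with DESeq2 (adjusted p = 0.00126) and without PiZ/Chop-/- library 2 (adjusted p = 0.0230, edgeR), and in no other alternative. The ferritin chains Fth1 and Ftl1, genes with many processed copies in the genome, had -0.65 (adjusted p = 0.293) and -0.79 (adjusted p = 0.513). PiZ library 4 was highest for both, with 2146 CPM of Fth1 and 1829 CPM of Ftl1. Without that library the fold changes were -0.27 and -0.07. For Ftl1 the groups overlapped. For Fth1 they did not, with 697 to 876 CPM in PiZ/Chop-/- libraries and 930 to 1048 CPM in PiZ libraries 1 to 3.

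The NADPH and thioredoxin lists had medians of 0.07 and -0.05, with members on both sides of 0. The non-oxidative pentose phosphate enzymes Taldo1 and Tkt had -0.11 (adjusted p = 0.865) and 0.09 (adjusted p = 0.942, edgeR), and malic enzyme Me1 had -0.30 (adjusted p = 0.781), and 0.16 without PiZ library 4. H6pd, the ER counterpart of G6pdx, had 0.38 (SE 0.17, adjusted p = 0.342) with groups that did not overlap, and Rpe had 0.36 (adjusted p = 0.577). The peroxiredoxin Prdx1, a substrate of sulfiredoxin, had 1192 ± 131 CPM in PiZ/Chop-/- and 1644 ± 404 CPM in PiZ livers (SD, n = 4 each), with a log2 fold change of -0.46 (adjusted p = 0.354, edgeR), and -0.29 without PiZ library 4. Prdx3 had -0.44 (adjusted p = 0.499), and -0.21 without that library, and thioredoxin itself, Txn1, 0.07 (adjusted p = 0.929). Osgin1 and Cyp2a5, of the other targets, had -0.19 (adjusted p = 0.813) and -0.55 (adjusted p = 0.541).

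The antioxidant response core was found in the windows of 17 of 89 other pathway genes with a window (19.1%), and of 14.0% of all 27025 genes in the table. Among the 6 genes that fell it was in windows of Abcc4 and Ggt1 and not in those of Gpx2, Gstm2, Gstm3 or Akr1b7. The composite element was in none of the 120 windows of these lists.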

How the data were processed

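QuantSeq 3' mRNA libraries were made from 100 ng of total liver RNA and read from 1 end over 75 bases, per the labels' protocols. The authors deposited 1 table of raw counts per library, per the file headers. The submitters' processing notes name STAR, HTSeq and mm10 without versions. No source used here gives the annotation, the strand setting or the handling of duplicates. Each of the 8 tables held 52551 rows, 52550 of them Ensembl IDs, and 52403 were found in GENCODE M21, an annotation of mm10 that may not be the authors'.

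The fit used R 4.3.3 and edgeR 4.0.16. A minimum count of 10 in filterByExpr kept 8669 genes, followed by TMM, glmQLFit (robust) and glmQLFTest for PiZ/Chop-/- against PiZ, no covariate, Benjamini-Hochberg over all tested genes, threshold 0.05. The SE is the log2 fold change over the square root of F. Tested on simulated data for this comparison (8669 genes), the fit called 36.6% of the 2-fold and 87.6% of the 4-fold changes, and 5.77% of its calls were false. Profiles used log2 CPM with a prior count of 2.

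The members and lists were chosen with earlier results of these data known. Named were all members, Ddit3, SERPINA1 and 18 fixed pathway genes; from each list up to 4 called genes by lowest p, or else the 2 of lowest p; and the 5 genes nearest to Cbr3. Alternatives were other scalings, DESeq2 1.42.0, limma-voom (limma 3.58.1), other filters, a fit that was not robust, a replicate block and left-out libraries. Depth limits low genes: 1 read was worth 0.32 to 0.62 CPM, a counting limit only. Pairs of replicates all differed by more than sampling noise. Sequences are from RefSeq.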

Additional observations from a re-analysis of the deposited data

Results flagged for a closer look

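Of 82 groups of 4 libraries checked over 41 named genes, 7 held a library far from the other 3; chance flags about 1 group in 20. Of the members, Txnrd1 was flagged in PiZ livers, where library 4 was lowest at 59.3 CPM and the next was at 81.3 CPM. Hmox1 was flagged in PiZ/Chop-/- livers, where library 3 was highest at 67.0 CPM and the next was at 39.1 CPM. PiZ library 4 was also highest for Me1 at 129 CPM (next 55.6 CPM), Fth1 at 2146 CPM (next 1048 CPM) and Ftl1 at 1829 CPM (next 574 CPM). PiZ library 1 was lowest for Abcc2 at 152 CPM (next 252 CPM) and for Gstm2 at 740 CPM (next 883 CPM).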

How the results depend on the processing

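All 18 alternatives kept the direction of 6 of the 9 tested members, Nfe2l2, Keap1, Cbr1, Cbr3, Srxn1 and Pgd, and kept Cbr3 past the threshold. Over all genes 89 were called, but 208 with DESeq2 and 357 with no filter on low counts, which tested 10343 and 19847 genes, and 46 to 169 with 1 library left out. One member was called, but 2 with library size only, with DESeq2 and without PiZ libraries 1 and 4, 3 with no filter, and 1 to 2 with 1 library left out. Of the other pathway genes 6 were called, but 11 with DESeq2 and 11 with no filter, and 4 to 8 with 1 library left out. Among these the calls of Ggt1, Gpx2, Abcc4 and Akr1b7 held in every alternative. These are the genes that reached the count filter through PiZ libraries, where they are high. That their calls held is therefore a description and no added support. Nqo1 moved to 0.02 without PiZ libraries 1 and 4. Several values near 0 changed sign, and the cause was not tested. Without PiZ libraries 1 and 4 Gclc was at -0.046, Taldo1 at 0.029, Tkt at -0.19, Me1 at 0.16 and Abcc2 at -0.063. With library size only Mafg was at -0.033 and Txn1 at -0.015. With 1 library left out Mafg ran from -0.025 to 0.15 (-0.0012 without PiZ library 2), Taldo1 from -0.24 to 0.040, Tkt from -0.17 to 0.32, with -0.030 without PiZ/Chop-/- library 2, and Me1 from -0.51 to 0.16. In the same fits Txn1 ran from -0.088 to 0.26, with -0.075 without PiZ/Chop-/- library 4, Abcc2 from -0.027 to 0.24 and Osgin1 from -0.39 to 0.0089. Libraries that share a number did not deviate together (r from -0.051 to 0.049), so no pairing by number was seen. A pairing with small effects could look the same. With the replicate block 76 genes, 1 member and 7 other pathway genes were called. Genes of a few counts per library, such as G6pdx, are beyond what this depth can compare.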
